A study of Mus musculus with 2 samples.

Results

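The genes described here are 8 components and helpers of goblet cell mucus: Muc2, Fcgbp, Clca1, Zg16, Tff3, Agr2, Spink4 and Klk1. They were taken by symbol from the 27998 genes of the count tables, and each symbol matched 1 gene. The data are 2 sc-RNASeq libraries of ileal epithelium from C57BL/6 mice aged 8 weeks, 1 from wild type (WT) mice and 1 from Tipe0-/- mice, which carry the TNFAIP8-/- genotype. Cells of 3 mice were pooled per genotype before sequencing, so each genotype has 1 library and the mice within it cannot be told apart. No treatment other than cell isolation is named. The labels call the cells ileal enterocytes, but goblet, Paneth, tuft, enteroendocrine and lymphocyte markers were all present.

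Goblet cells secrete the mucus that separates the intestinal epithelium from bacteria. Its scaffold is a polymer of a single heavily glycosylated mucin, which is folded in the endoplasmic reticulum, decorated with O-glycans in the Golgi, packed into granules and expanded on release. Other secreted proteins of the granule cross-link, cut or coat that polymer, or act on bacteria at its surface.

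The WT library held 3402 cells and 38127808 unique molecular identifiers (UMIs, each standing for 1 captured mRNA molecule), and the Tipe0-/- library held 2006 cells and 23897126 UMIs. Median depth was 7760 and 7307.5 UMIs per cell, and mitochondrial genes took 6.59% and 8.56% of UMIs. Tnfaip8 itself had 372 UMIs in WT and 57 in Tipe0-/-, or 9.76 and 2.39 counts per 1000000 UMIs (CPM). The libraries shared 9 cell barcodes. With 1 library per genotype no test between genotypes was possible, and every interval given is an exact 95% interval of counting error that does not cover differences between mice. Intervals on summed UMIs and their ratios also leave out the spread between cells. A class of cells is called "like" a cell type because clusters were named from marker genes, and none of the 8 genes was used for clustering or naming.

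RefSeq promoter windows of GRCm38.p6, from 250 bases before to 50 after the start, were at hand for 4 of the 8 genes (Muc2, Fcgbp, Agr2 and Klk1). The windows of the mucin, of a mucus protein that was higher in the Tipe0-/- library and of a folding enzyme that was lower are shown, with matches to CAGCTG (an E-box, the same on both strands) and to CCACCC (on either strand) in capitals. Muc2 lies on the plus strand at chr7:141690090-141690389, Fcgbp on the plus strand at chr7:28070986-28071285 and Agr2 on the plus strand at chr12:35992675-35992974.
Muc2: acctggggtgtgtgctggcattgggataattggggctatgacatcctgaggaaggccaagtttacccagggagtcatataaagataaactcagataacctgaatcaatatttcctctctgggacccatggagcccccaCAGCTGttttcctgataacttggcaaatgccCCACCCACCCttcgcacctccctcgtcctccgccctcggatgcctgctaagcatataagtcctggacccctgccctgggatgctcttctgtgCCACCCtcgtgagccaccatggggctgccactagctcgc
Fcgbp: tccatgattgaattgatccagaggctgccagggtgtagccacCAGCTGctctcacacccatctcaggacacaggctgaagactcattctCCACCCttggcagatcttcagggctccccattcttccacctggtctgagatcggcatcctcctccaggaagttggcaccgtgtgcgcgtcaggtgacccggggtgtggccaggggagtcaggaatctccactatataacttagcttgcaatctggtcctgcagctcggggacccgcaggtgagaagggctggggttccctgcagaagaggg
Agr2: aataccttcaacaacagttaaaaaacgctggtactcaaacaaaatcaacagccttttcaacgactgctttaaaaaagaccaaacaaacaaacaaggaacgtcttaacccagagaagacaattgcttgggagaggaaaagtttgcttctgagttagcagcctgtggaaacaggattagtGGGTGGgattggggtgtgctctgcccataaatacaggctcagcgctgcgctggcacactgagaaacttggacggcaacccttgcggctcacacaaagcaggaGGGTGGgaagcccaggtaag
CAGCTG began 112 bases before the start of Muc2 and 208 before that of Fcgbp, and was in neither of the other windows. Of all 32851 windows, 16.3% held it. CCACCC was in all 4 windows, including that of Klk1 at chr7:44225110-44225409, and in 31.5% of all windows. TATAAA on either strand was found in 1 of the 4 windows, that of Muc2, against 13.6% of all, and TGTTTAC in 0 of the 4 against 3.65% of all. Matches to different motifs did not overlap in the windows shown, and the first pair of CCACCC matches in Muc2 overlapped each other. These are matches of letters and not sites of binding.

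Goblet-like cells held most UMIs of each of the 8 genes in both libraries. These cells numbered 733 in WT, 21.5% of the library (20.2 to 23.0%), and 512 in Tipe0-/-, 25.5% (23.6 to 27.5%), and they contained between 81.2% and 94.0% of all UMIs of each gene other than Spink4 in either library. Spink4 was divided between 2 classes. Goblet-like cells held 50.6% of its UMIs in WT and 62.7% in Tipe0-/-, and Paneth-like cells held 45.0% and 33.4%.

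**Figure D1:**
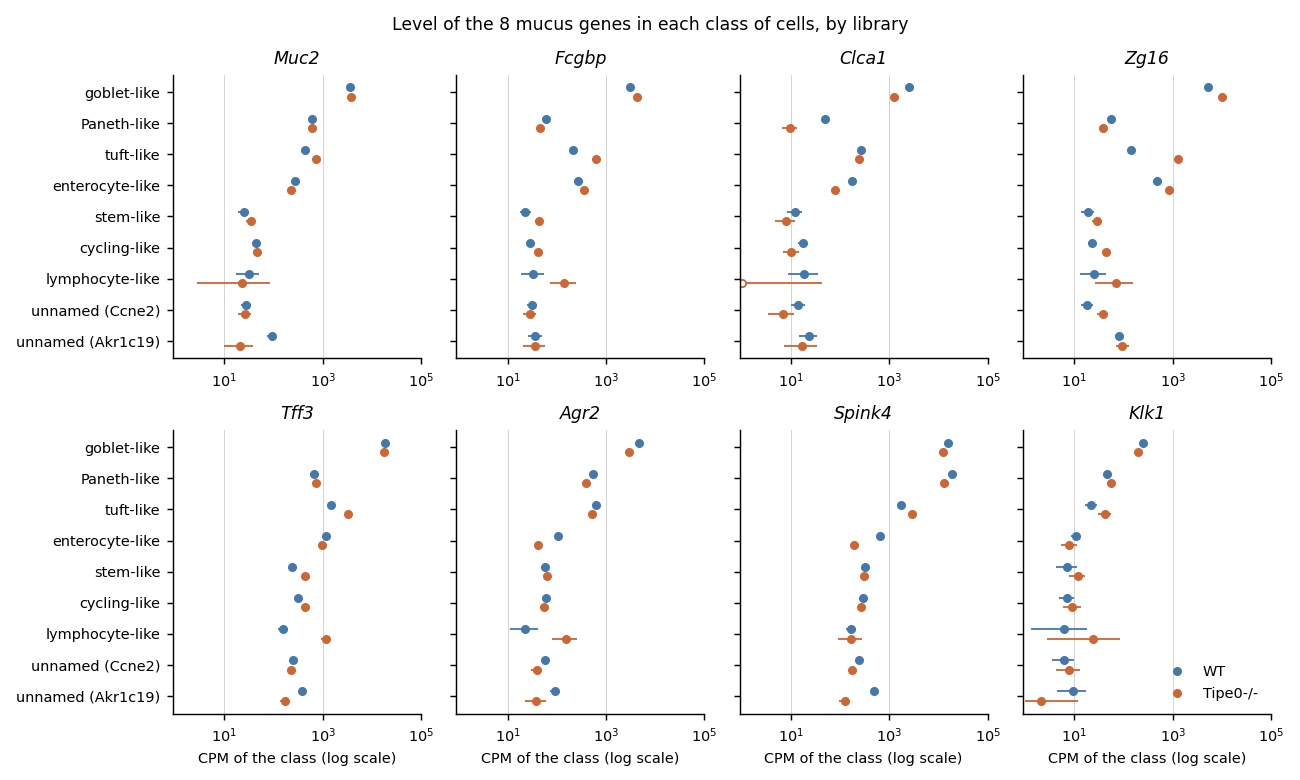
CPM of each gene within 9 classes of cells on a log axis, with 1 point per library, horizontal lines for exact 95% Poisson intervals and an open point at the left edge for a class with 0 UMIs. Goblet-like cells are the highest class for every gene except Spink4, for which Paneth-like cells reach 19106 CPM in WT and 13164 in Tipe0-/-, and Muc2 and Agr2 stand at 621 and 535 CPM in WT Paneth-like cells.

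Muc2, the gel-forming mucin of the scaffold (ENSMUSG00000025515, chromosome 7, 141690340 to 141754693 of GRCm38), was at 3590 CPM in WT and 3806 in Tipe0-/- goblet-like cells. Paneth-like cells followed with 621 and 610 CPM and tuft-like cells with 440 and 719, so that those neighbours overlapped. Enterocyte-like cells had 274 and 230 CPM, and no other class exceeded 91.7 CPM in either library. When every cell was thinned to 3000 UMIs, 79.4% of WT and 73.4% of Tipe0-/- Paneth-like cells had at least 1 Muc2 UMI. The share was 10.9% and 12.5% in lymphocyte-like cells, which should lack the gene, at median depths of 4492 and 4311.5 UMIs before thinning, against 20981.5 and 26111 in Paneth-like cells. The Paneth-like shares thus lay above the lymphocyte-like ones at the same thinned depth. The lymphocyte-like class of Tipe0-/- is a weak reference, since it has 16 cells, of which 1 carried 80.4% of the UMIs of the 8 genes there. The lymphocyte-like class of WT held enteroendocrine markers at 2069 CPM, against 7142 CPM of lymphocyte markers, so it was not free of other RNA.

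Of the secreted partners of the mucin, 3 act on the polymer or at its surface. Fcgbp, a large mucus protein that binds the mucin polymer (ENSMUSG00000047730, chromosome 7, 28071236 to 28120862), had 3098 CPM in WT and 4315 in Tipe0-/- goblet-like cells. In Paneth-like cells it had 61.6 and 45.8 CPM, and 9.22% and 15.8% of those cells had a UMI after thinning. Lymphocyte-like cells had 9.78% in WT and 6.25% in Tipe0-/-, where they numbered 16, and no expression in Paneth-like cells was read from shares this near to them. Clca1, a secreted metalloprotease that cuts the mucin (ENSMUSG00000028255, chromosome 3, 145003817 to 145032776), had 2496 and 1271 CPM in goblet-like cells and 50.1 and 9.37 in Paneth-like cells. In Tipe0-/- lymphocyte-like cells it had 0 UMIs, and 3 counts of the UMIs of that class would be 35.2 CPM. Zg16, a lectin that binds bacteria in mucus (ENSMUSG00000049350, chromosome 7, 127050156 to 127087328), had 5203 and 10249.8 CPM in goblet-like cells. Its second class was tuft-like cells, at 142 CPM in WT and 1255 in Tipe0-/-, which spanned the enterocyte-like values of 474 and 843.

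Tff3, a trefoil peptide of mucus (ENSMUSG00000024029, chromosome 17, 31125306 to 31129646), was at 18755 CPM in WT and 17620.1 in Tipe0-/- goblet-like cells. The next class was tuft-like cells at 1483 and 3252 CPM. Agr2, a disulfide isomerase of the endoplasmic reticulum that mucin folding needs (ENSMUSG00000020581, chromosome 12, 35992907 to 36004087), had 4653 and 2938 CPM in goblet-like cells. Its levels in tuft-like cells (627 and 530 CPM) and Paneth-like cells (535 and 390 CPM) overlapped each other. After thinning, 66.0% of WT and 63.3% of Tipe0-/- Paneth-like cells had an Agr2 UMI, against 3.26% and 18.8% of lymphocyte-like and 12.99% and 10.9% of stem-like cells. Of Paneth-like cells 11.0% in WT and 10.1% in Tipe0-/- were among the 5% with the highest doublet scores, whose part in the Muc2 and Agr2 values there was not tested.

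Spink4, a secreted peptide with a Kazal-type protease inhibitor domain (ENSMUSG00000028415, chromosome 4, 40920052 to 40931395), had its highest level in Paneth-like cells. It had 19106 CPM there in WT and 13164 in Tipe0-/-, against 15285 and 12136 in goblet-like cells, so the ranges of the 2 classes overlapped. Every Paneth-like cell of both libraries had a Spink4 UMI after thinning. It made up 90.3% of the UMIs of the 8 genes in WT Paneth-like cells and 87.5% in those of Tipe0-/-. Klk1, a tissue kallikrein (ENSMUSG00000063903, chromosome 7, 44225360 to 44229618), had 252 and 201 CPM in goblet-like cells, and Paneth-like cells followed at 45.7 and 55.7. Its 13 listed relatives of the Klk1b family, whose sequences are close enough that reads may be divided among them, had 13 and 9 UMIs in all, against 2904 and 1884 of Klk1.

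Small amounts of these mRNAs were found throughout both libraries. In the median stem-like cell the 8 genes made up 0.0535% of UMIs in WT and 0.0391% in Tipe0-/-, and in the median enterocyte-like cell 0.0347% and 0.0252%. In stem-like cells Zg16 was at 18.7 CPM in WT and 29.2 in Tipe0-/-, Fcgbp at 22.9 and 42.9, and Clca1 at 12.1 and 7.80. In cycling-like cells the same genes were at 22.6 and 43.4, 28.2 and 41.6, and 17.3 and 10.1 CPM. The log2 ratio of Clca1 in stem-like cells rested on 31 and 20 UMIs and had an interval from -1.52 to 0.23. In summed level enterocyte-like cells as a class shared these directions, with log2 ratios of 0.83 for Zg16, 0.39 for Fcgbp and -1.10 for Clca1. Their clusters disagreed. Zg16 was at 0.91 in that led by Apoa4 and 0.62 in that led by Arg2, but at -0.45 (-0.85 to -0.07) in that led by Slc40a1. Fcgbp was at 0.61, 0.11 (-0.16 to 0.37) and -1.25 (-1.72 to -0.82) in the same order. Clca1 was lower in each, at -0.74, -1.77 and -3.14. Tuft-like cells had the directions of stem-like cells, at 3.14 for Zg16, 1.54 for Fcgbp and -0.12 (-0.34 to 0.10) for Clca1. Lymphocyte-like cells had the same directions on few UMIs, with intervals that held 0 for Zg16 (-0.20 to 3.02) and Clca1. Their 12 Fcgbp UMIs in Tipe0-/- lay in 6.25% of the 16 cells. The cluster led by Akr1c19 showed no clear direction. It had ratios of 0.21 (-0.35 to 0.74) for Zg16 and -0.37 (-1.80 to 0.77) for Clca1, and Fcgbp at 35.9 CPM in WT and 35.7 in Tipe0-/-. The cluster led by Ccne2 differed only for Fcgbp, at -0.17 (-0.71 to 0.35). Paneth-like cells instead had a ratio of -0.50 (-0.79 to -0.22) for Zg16 and of -0.43 (-0.69 to -0.17) for Fcgbp. The share of Paneth-like cells with a UMI after thinning was nevertheless larger in Tipe0-/-, at 9.93% and 16.5% for Zg16 and 9.22% and 15.8% for Fcgbp. The highest thinned Paneth-like cell had 35 Zg16 UMIs in WT and 9 in Tipe0-/-, and 44 and 2 for Fcgbp, so those sums lean on few cells. The summed level in enterocyte-like cells came mostly from a few cells. Cells in which the 8 genes made up at least 1% of UMIs numbered 51 of 954 in WT and 15 of 466 in Tipe0-/-, and they carried 85.6% and 87.8% of the enterocyte-like UMIs of these genes. Tuft-like cells were alike in this, with 19 of 157 cells in WT and 10 of 50 in Tipe0-/- carrying 80.2% and 85.3% of their UMIs of these genes, so that the tuft-like levels above also rest on few cells. Of tuft-like cells 11.5% and 20% were among the 5% with the highest doublet scores, and the part of doublets in these levels was not tested.

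Goblet-like cells fell into 3 clusters that differed widely in mucus content. In the cluster led by Mt3, Creb3l1 and Spdef (425 WT and 327 Tipe0-/- cells), the 8 genes took 2.12% of UMIs in WT and 2.43% in Tipe0-/-. This cluster was the deepest, at a median of 15319 and 17463 UMIs per cell. Its cycling markers summed to 1745 and 1665 CPM, against 254 or less in WT and 296 or less in Tipe0-/- in the others. Its goblet markers summed to less, 1253 and 1136 CPM. At resolution 1.2, a cluster of 259 WT and 192 Tipe0-/- cells, with Creb3l1, Dll1 and Etv5 also among its leading genes, was named cycling. The enteroendocrine marker Sct was among its leading genes too. Goblet-like cells were then 13.9% of WT and 16.0% of Tipe0-/- cells, against 21.5% and 25.5% at resolution 0.4. The overlap of that cycling cluster with the cluster led by Mt3 was not tested. In the cluster led by Sval1, Ido1 and Zg16 (197 and 129 cells), the genes took 20.03% and 24.4% of UMIs, and up to 52.0% and 57.7% in a single cell. Its median depth was 5151 and 4900 UMIs. In the cluster led by Zg16, Ido1 and Clca1 (111 and 56 cells), they took 8.17% and 9.82%. Enterocyte markers summed to 17592 and 20589 CPM there, with 16 of 17 found in each library, against 1791 and 2551 CPM in the cluster led by Sval1, with 16 and 15 found. Of its cells, 21.6% and 32.1% were among the 5% with the highest doublet scores of their library. Leaving out those 5% moved the goblet-like log2 ratio of Tipe0-/- over WT from -0.66 to -0.55 for Agr2, below 1.5-fold, and kept Zg16 at 1.03 and Clca1 at -0.91. No cluster was named enteroendocrine here, whereas clustering on 2000 variable genes by vst gave one of 42 WT and 29 Tipe0-/- cells. Summed enteroendocrine markers were at 662 and 352 CPM in the cluster led by Mt3 and 837 and 589 in that led by Sval1. In the cluster led by Zg16 they were at 264 and 591 CPM. The part of enteroendocrine cells in the goblet-like values was not tested.

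**Figure D2:**
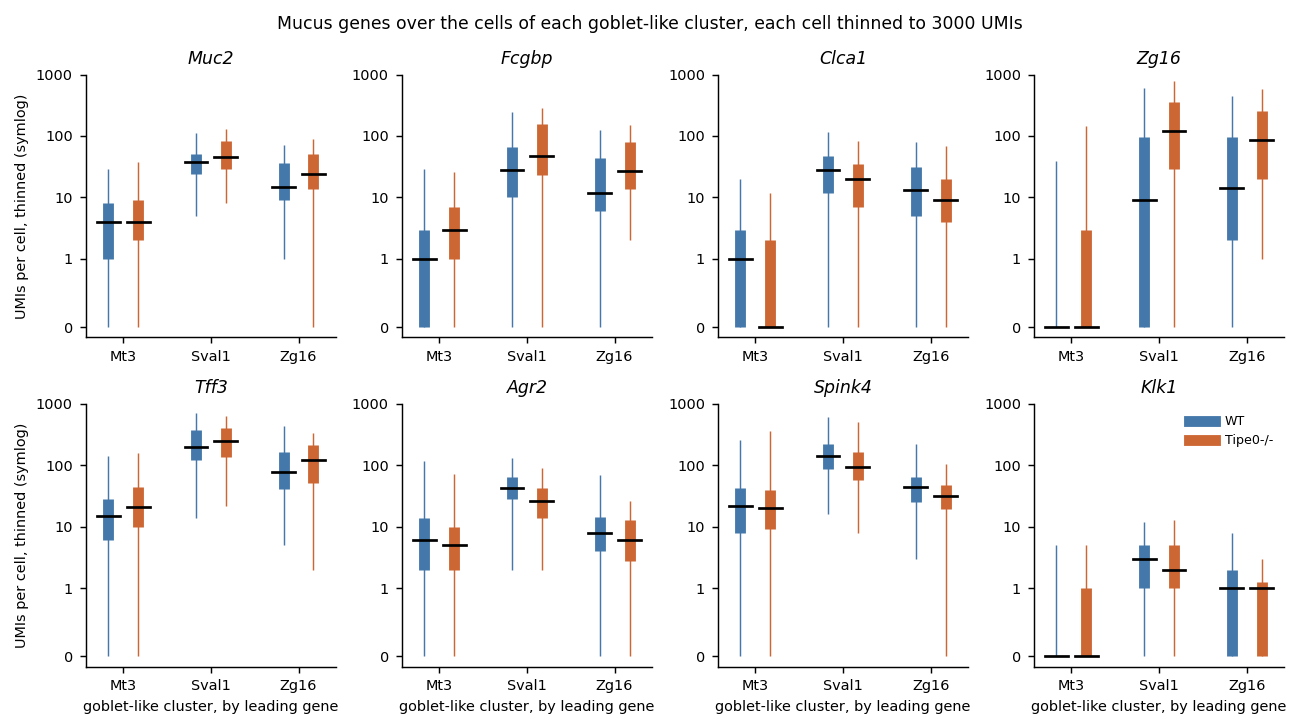
UMIs of each gene per cell after thinning to 3000 UMIs, in the 3 goblet-like clusters, on a scale that is linear below 1 and logarithmic above; thin lines span the lowest to the highest cell, thick bars the quartiles and black marks the median. For Zg16 in the cluster led by Sval1 the median is 9 UMIs in WT and 119 in Tipe0-/-, while for Agr2 it is 43 and 26.

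The make-up of the mucus UMIs differed between these clusters and from that of Paneth-like cells. Spink4 provided 41.5% of the mucus UMIs in WT cells of the cluster led by Mt3, 25.96% in that led by Sval1 and 18.7% in that led by Zg16. Agr2 followed the same order, with 13.5%, 7.94% and 4.68%. Zg16 ran the other way, from 1.505% to 10.4% and 18.3%. In Tipe0-/- the same 3 orders held, with Zg16 at 5.77%, 26.1% and 31.1%, Agr2 at 8.86%, 3.90% and 3.14%, and Spink4 at 36.6%, 16.2% and 12.8%. Muc2 stayed between 6.16% and 7.70% in all 3 clusters of both libraries. Each mRNA molecule is counted once in this assay, so these shares are of molecules captured and were not divided by gene length.

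**Figure D3:**
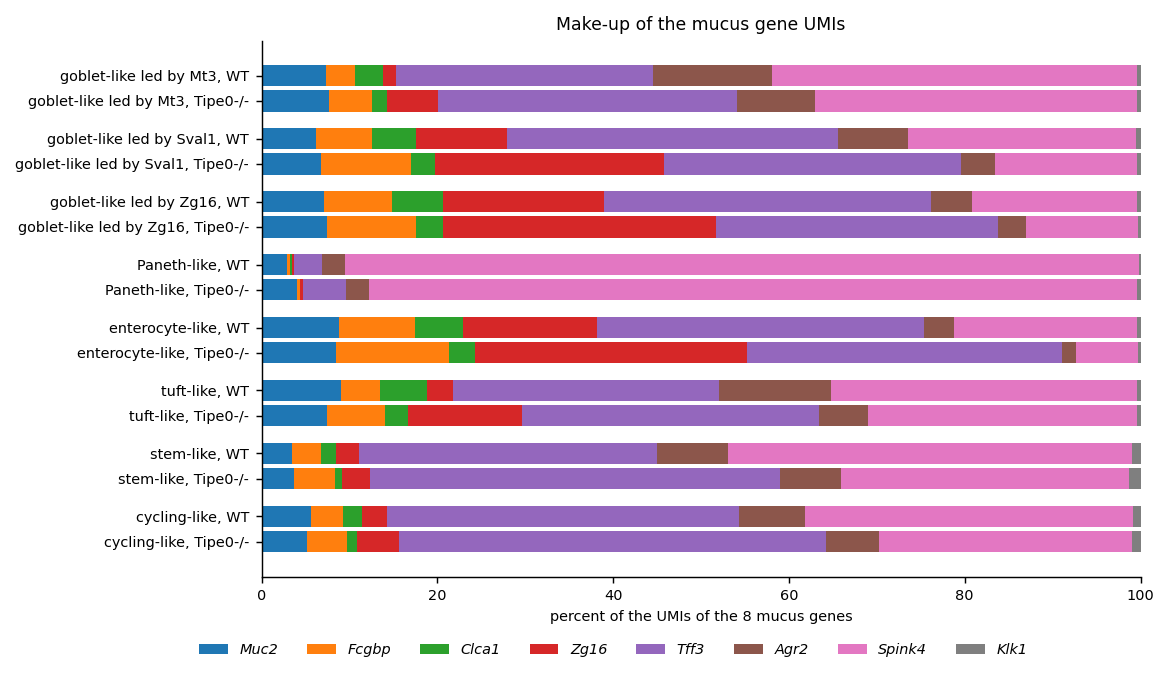
Share of the UMIs of the 8 genes that each gene provides, in the 3 goblet-like clusters and 5 other classes, with 1 bar per library and all bars summing to 100%. Spink4 fills 90.3% and 87.5% of the Paneth-like bars, and the Zg16 segment of the cluster led by Sval1 grows from 10.4% in WT to 26.1% in Tipe0-/-.

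All 8 genes were found together in many of the mucus-rich cells. After thinning, 117 of 197 WT cells (59.4%) and 92 of 129 Tipe0-/- cells (71.3%) in the cluster led by Sval1 had a UMI of every gene. Among cells of the cluster led by Mt3 this was 19 of 425 (4.47%) and 33 of 327 (10.1%). Muc2, Tff3, Agr2 and Spink4 were found in all cells of the cluster led by Sval1 in both libraries, so the missing genes were those of lower or more uneven level. Zg16 was the most uneven. The 5% of WT cells richest in it held 93.2% of its UMIs, compared with 44.9% for Muc2 and 46.0% for Spink4, and in Tipe0-/- the values were 79.2%, 41.3% and 45.0%.

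The comparison of the libraries asks whether loss of Tipe0 goes with a different level of mucus genes in the ileum. Over whole libraries, Zg16 and Fcgbp were higher in Tipe0-/- and Clca1 was lower, each by at least 1.5-fold. Zg16 went from 1418 CPM in the WT library to 3470 in the other, and its log2 ratio (Tipe0-/- over WT, as for all ratios here) was 1.29 (1.28 to 1.31). Fcgbp had 857 and 1477 CPM and a ratio of 0.78 (0.76 to 0.81). Clca1 had 683 and 432 CPM and a ratio of -0.66 (-0.69 to -0.63). Among the 11665 genes with at least 50 UMIs, 8.62% were at least 1.5-fold higher and 5.06% at least 1.5-fold lower. The 8 genes gave 2 higher and 1 lower.

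The other 5 genes were within 1.5-fold. Muc2 was at 1094 CPM in WT and 1386 in Tipe0-/- (log2 ratio 0.34), and Tff3 at 5180 and 6142 (0.25). Agr2 was at 1321 and 1043 CPM (-0.34), and Spink4 at 7466 and 6158 (-0.28). Klk1 was at 76.2 and 78.8 CPM, and its log2 ratio of 0.05 had an interval from -0.03 to 0.13. The median log2 ratio over all genes was 0.15, which is the level against which these are read. The 8 genes together made up 1.81% of UMIs in WT and 2.02% in Tipe0-/-. Whole-library sums mix the level per cell with the share of goblet-like cells, and fewer cells of a type and less RNA per cell cannot be told apart in them. When each class was given the same weight in both libraries, the ratio of Fcgbp was 0.48 and that of Agr2 -0.64, so that Fcgbp no longer passed 1.5-fold and Agr2 did. Zg16 was then at 0.99 and Clca1 at -0.97. As a mean over thinned cells, which weights cells and not UMIs equally, Clca1 was at -0.47 and did not pass.

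**Figure D4:**
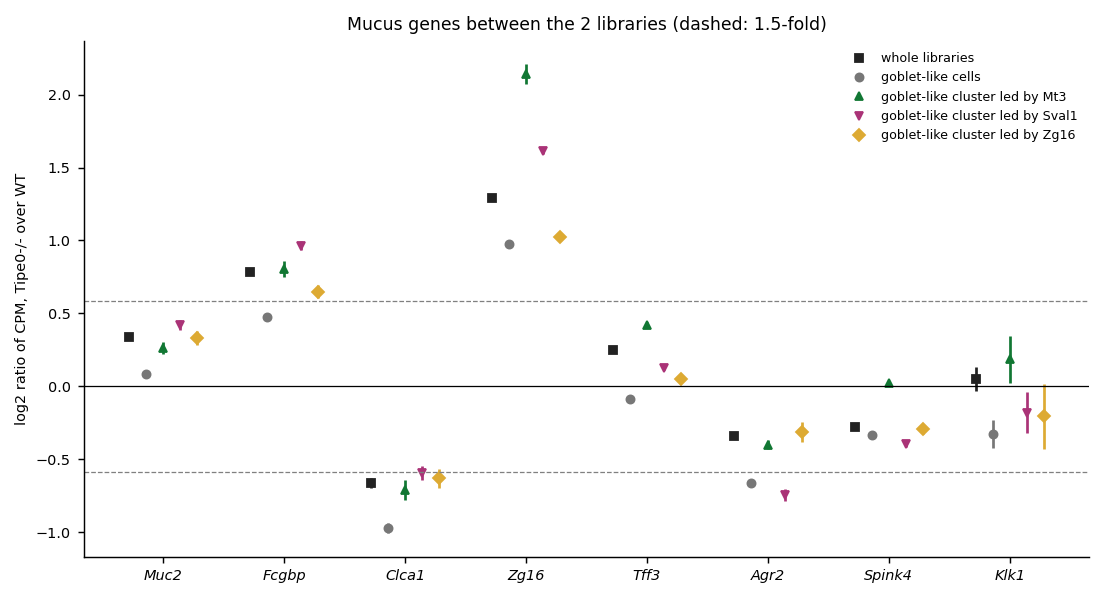
Log2 ratio of CPM, Tipe0-/- over WT, for each gene in whole libraries, in all goblet-like cells and in the 3 goblet-like clusters; vertical lines are exact binomial 95% intervals and dashed lines mark 1.5-fold. Zg16 lies above the upper dashed line and Clca1 below the lower one in all 5 groups of cells, whereas Fcgbp passes the upper line in all but the pooled goblet-like cells.

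Within goblet-like cells, Zg16 was again higher in Tipe0-/- and Clca1 and Agr2 were lower. Zg16 had a log2 ratio of 0.98 (0.96 to 0.99), Clca1 of -0.97 (-1.01 to -0.94) and Agr2 of -0.66 (-0.69 to -0.64). Of 10037 genes, 5.77% were at least 1.5-fold higher and 3.37% at least 1.5-fold lower, and of the 8 genes 1 and 2. Fcgbp had a log2 ratio of 0.48 (0.46 to 0.50), below the 1.5-fold line. The scaffold mucin Muc2 was at 0.08 (0.06 to 0.11), near the median over all genes of 0.09. Tff3 had a ratio of -0.09, Spink4 of -0.33 and Klk1 of -0.33.

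The pooled values changed with the makeup of the goblet-like class. The mucus-poor cluster led by Mt3 made up 425 of 733 goblet-like cells in WT and 327 of 512 in Tipe0-/-. Its cycling markers summed to more CPM than its goblet markers in both libraries, and the pooled ratios include its cells. Sums over unlike marker lists do not rank identities. All 18 goblet markers were found in 10% of its cells and in 1.5 times the share of other cells. With each of the 3 clusters given the same weight in both libraries, a comparison chosen after seeing the data, Muc2 had a log2 ratio of 0.34, Fcgbp of 0.85, Zg16 of 1.43 and Tff3 of 0.20. Under the same weighting Clca1 was at -0.63, Agr2 at -0.52, Spink4 at -0.18 and Klk1 at -0.06. Fcgbp then passed 1.5-fold and Agr2 no longer did.

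Zg16 was higher in Tipe0-/- in each of the goblet-like clusters, in level and in the share of cells with a UMI. The cluster led by Mt3 had Zg16 at 318 CPM in WT and 1403 in Tipe0-/- (log2 ratio 2.14), and 21.9% (18.0 to 26.1%) and 41.3% (35.9 to 46.8%) of thinned cells had a UMI. The cluster led by Sval1 had 20781 and 63602 CPM (1.61), and 66.5% (59.4 to 73.0%) and 89.1% (82.5 to 93.9%) of cells. The upper quartile in that cluster was 98 UMIs per thinned cell in WT and 361 in Tipe0-/-. The cluster led by Zg16 had 14972 and 30504 CPM (1.03), and 82.9% and 100% of cells. The share of cells with a Zg16 UMI was also larger in Tipe0-/- in classes outside the secretory ones, at 6.82% in WT and 10.5% in Tipe0-/- for stem-like cells (median depth 6250 and 6845.5 UMIs) and at 9.78% and 25% for lymphocyte-like cells. The shares in the goblet-like clusters lay above these in the same library, and the part of such background in the difference between libraries was not tested.

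Fcgbp was also higher in Tipe0-/- in every goblet-like cluster. It went from 677 to 1180 CPM in the cluster led by Mt3, from 12808 to 24987 in that led by Sval1 and from 6331 to 9929 in that led by Zg16, with log2 ratios of 0.80, 0.96 and 0.65. Clca1 was lower in each, with ratios of -0.71, -0.59 (-0.64 to -0.55) and -0.63, the second of which lay at the 1.5-fold line. It went from 678 to 414 CPM, from 10051 to 6654 and from 4710 to 3039 in the same order. Nearly all cells of the cluster led by Sval1 kept a Clca1 UMI after thinning, 97.5% in WT and 93.8% in Tipe0-/-, and the median went from 28 to 20 UMIs. For Clca1 the difference there was thus in level rather than in the share of cells.

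Agr2 was lower in each cluster as well, by an amount that varied. Its ratio was -0.74 in the cluster led by Sval1, where the median thinned cell had 43 UMIs in WT and 26 in Tipe0-/-, but -0.40 and -0.31 in those led by Mt3 and Zg16. Muc2 was higher in each cluster by less than 1.5-fold, with ratios of 0.26, 0.42 and 0.33 in the clusters led by Mt3, Sval1 and Zg16. Tff3 had ratios of 0.42, 0.13 and 0.05. Klk1 had a ratio of 0.19 (0.02 to 0.35) in the cluster led by Mt3 and of -0.18 (-0.32 to -0.04) in that led by Sval1, and the difference between these was not tested.

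The number of genes past 1.5-fold can be set against all genes of each cluster. In the cluster led by Mt3, 5.4% of genes were higher and 2.56% lower, and of the 8 genes 2 and 1. In the cluster led by Sval1 the values were 10.1% and 7.39% with 2 of the 8 genes each way, and in that led by Zg16 they were 8.02% and 6.18% with 2 and 1. Zg16 and Fcgbp were the higher genes in all 3 clusters and Clca1 a lower gene in all 3, with Agr2 added in the cluster led by Sval1. The clusters come from the same 2 libraries and are not replicates of one another.

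Spink4 was near parity in the cluster led by Mt3 and lower in Tipe0-/- in the other goblet-like clusters and in Paneth-like cells. Its log2 ratio was 0.02 in the first, -0.40 in the cluster led by Sval1, -0.29 in that led by Zg16 and -0.54 (-0.55 to -0.52) in Paneth-like cells. In Paneth-like cells the median thinned cell had 48.5 UMIs in WT and 30 in Tipe0-/-. The median ratio over all genes in these cells was 0.48, and the summed Paneth markers, all 12 of which were found in both, were at 208999 CPM in WT and 166004 in Tipe0-/-. Muc2 (-0.03), Tff3 (0.13) and Agr2 (-0.45) were also below that median, whereas the interval of Klk1 (0.29, 0.03 to 0.55) held it. In the goblet-like clusters led by Mt3, Sval1 and Zg16 the Paneth markers, all 12 of which were found, summed to 1421, 2748 and 781 CPM in WT and to 947, 1304 and 410 in Tipe0-/-. In tuft-like cells summed Spink4 was instead higher in Tipe0-/-, with a log2 ratio of 0.79 (0.72 to 0.86). That sum leans on few cells. The median thinned tuft-like cell had 0 Spink4 UMIs in both libraries, and the highest had 107 in WT and 243 in Tipe0-/-. The share with a UMI differed by -7.68 percentage points (Tipe0-/- minus WT). Spink4 was at -1.74 in enterocyte-like cells, -1.95 in the cluster led by Akr1c19 and -0.50 in that led by Ccne2. Cycling-like cells were at -0.17, stem-like at -0.10 and lymphocyte-like at 0.02. The part of Paneth cell RNA in the goblet-like values of Spink4 was not tested.

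From cell to cell, Fcgbp, Tff3, Zg16, Muc2 and Clca1 varied together in the cluster led by Sval1, and Agr2, Spink4 and Klk1 less so. Over its thinned cells, Fcgbp and Tff3 had a Pearson correlation of log2(UMIs + 1) of 0.87 in both WT and Tipe0-/-, and Fcgbp and Zg16 of 0.76 and 0.85. Muc2 had 0.68 and 0.71 with Fcgbp. Clca1 had 0.65 and 0.84 with Fcgbp, and 0.49 and 0.82 with Zg16. Agr2 stood apart, with -0.18 and -0.38 against Muc2 and -0.13 and -0.34 against Fcgbp. Spink4 had -0.01 and -0.24 against Fcgbp but 0.33 and 0.13 against Muc2. Klk1 had 0.25 and 0.29 against Fcgbp. Agr2 in the cluster led by Mt3 was positively related to Muc2 (0.46 in both libraries) and to Tff3 (0.58 and 0.67). In the cluster led by Zg16, Agr2 had 0.18 and 0.28 with Muc2, and 0.27 and 0.30 with Fcgbp. These values describe cells that share a library and a fixed total of 3000 UMIs, and where the 8 genes take a large part of that total, as in the cluster led by Sval1, more UMIs of one gene leave fewer for the others.

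The genes whose levels across clusters were most like those of the 8 included Tpsg1, Capn9, Bcas1, Spdef and Ramp1, which were among the markers used to name clusters. Over the 26 values from 13 clusters in 2 libraries, and among 7950 genes with at least 500 UMIs, Muc2 was most like Tpsg1 (Pearson r of log2(CPM + 1) 0.97), Ccl6 (0.96) and Capn9 (0.95). Fcgbp and Zg16 both had Fer1l6, Capn9 and Bcas1 as their nearest genes, at 0.93 to 0.94 for Fcgbp and 0.89 to 0.92 for Zg16. Tff3 had Capn9, Bcas1 and Fer1l6, and Clca1 had Capn9, Fer1l6 and Tpsg1. Agr2 was most like Tpsg1, Spdef and Hepacam2, and Spink4 like Ramp1 (0.98), Ccl6 and Spdef. Klk1 was most like Atoh1 (0.95), the transcription factor of the secretory lineage, Sval1 and Hgfac. Among the 8 genes themselves the highest value was 0.98, for Fcgbp with Zg16 and with Tff3, and the lowest 0.69, for Zg16 with Spink4.

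Among other genes listed for mucus synthesis, 5 listed under O-glycan synthesis and sugar donors were lower in Tipe0-/- goblet-like cells by at least 1.5-fold. Of 102 listed genes 99 were in the tables and 68 had at least 50 UMIs in goblet-like cells, of which 4 were higher in Tipe0-/- and 5 lower, with a median log2 ratio of -0.02 against 0.09 for all genes. Over all genes in goblet-like cells 5.77% were higher and 3.37% lower by that fold. All 5 lower genes belonged to the 29 compared genes listed under O-glycan synthesis and sugar donors, whose action on mucin was not tested. They were Fut2, a fucosyltransferase (40.7 CPM in WT and 18.0 in Tipe0-/-, log2 ratio -1.17), and 4 sialyltransferases. St3gal4 was at 233 and 132 CPM (-0.83), St3gal6 at 36.5 and 20.4 (-0.84), St3gal3 at 9.01 and 3.81 (-1.22) and St6galnac6 at 9.22 and 4.21 (-1.12). St3gal3 rested on 85 and 29 UMIs (interval -1.90 to -0.62) and St6galnac6 on 87 and 32 (-1.76 to -0.53). In whole libraries St3gal4 was at 303 and 185 CPM (-0.72), above its goblet-like level, and St6galnac6 had a ratio of -1.19. St3gal3 (-0.28) and St3gal6 (-0.20) were within 1.5-fold there. Among goblet-like clusters St3gal4 was highest in that led by Zg16, at 667 and 510 CPM (-0.39). The list holds 7 sialyltransferases, a grouping made after their values were seen. Of the others, St6galnac2 had a log2 ratio of 0.10, St3gal1 of 0.47 and St6galnac1 0 UMIs in goblet-like cells.

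**Figure D5:**
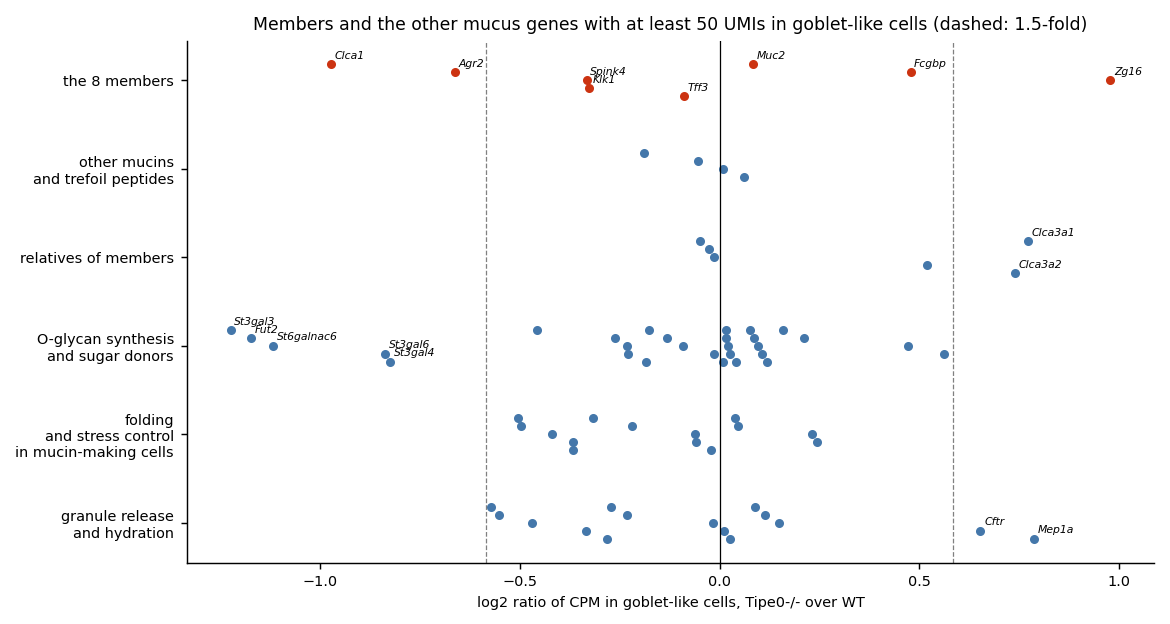
Log2 ratio of CPM in goblet-like cells, Tipe0-/- over WT, for the 8 genes (top) and for the 68 other mucus genes with at least 50 UMIs there, with 1 point per gene, vertical spread within a group only to separate points, and dashed lines at 1.5-fold. The 5 points left of the lower line outside the top group are all genes listed under O-glycan synthesis and sugar donors, down to St3gal3 at -1.22.

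The 4 higher genes were from other groups. With 68 genes compared and 5.77% of all genes higher by that fold, their number was near the background. Cftr, the chloride and bicarbonate channel that mucus needs to expand, was at 55.0 CPM in WT and 86.5 in Tipe0-/- (log2 ratio 0.65), and Mep1a, a subunit of the protease meprin, at 34.1 and 58.9 (0.79). Both were among 15 compared genes of granule release and hydration. The part of enterocyte RNA in the Mep1a values was not tested. Clca3a1 (0.77, 0.11 to 1.46) and Clca3a2 (0.74, 0.27 to 1.22), relatives of Clca1, had the opposite direction to it, and Clca3b had a ratio of 0.52. In goblet-like cells Clca3a1 rested on 34 and 47 UMIs and Clca3a2 on 66 and 89. The 6 listed relatives of Clca1 had 12661 UMIs in WT and 9990 in Tipe0-/-, against 26053 and 10326 of Clca1. These are raw sums from libraries of 38127808 and 23897126 UMIs and are not to be compared between libraries as they stand. Reads of these related genes may not be fully separated. Of the 14 genes of folding and stress control 0 passed 1.5-fold in either direction, with a median of -0.14, and of the 4 compared other mucins and trefoil peptides 0 passed, the range being -0.19 to 0.06. Among gel-forming mucins other than Muc2, Muc5ac and Muc5b had 0 UMIs in both libraries and Muc6 had 1 in each.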

How the data were processed

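The authors prepared both libraries with Chromium Single Cell 3′ v2 chemistry, and used Cell Ranger to align them to mm10 and count UMIs, per the labels and the study's methods. The deposited values are raw UMI counts per gene and cell for every retained cell, without the depth equalization that the methods describe. The methods name DNase I with Dispase for digestion, the labels collagenase with dispase and enteroids. All genes and marker lists were chosen with earlier results of these data known. Clustering used Seurat 5.3.0 under R 4.3.3, with genes variable in mean and dispersion, 14 principal components and a resolution of 0.8. The 8 genes and 117 genes that the study lists between genotypes were kept out, which left 529 of 582 variable genes. Each cluster was named for the marker list of highest mean z-score, given at least 3 markers found in 10% of its cells and in 1.5 times the share of other cells. This named 11 of 13 clusters. The 2 unnamed ones were led by Ccne2 and Akr1c19.

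Summed UMIs were given per 1000000 UMIs with exact Poisson intervals, and ratios with 0.5 added to each sum and exact binomial intervals. For shares of cells each cell was thinned to 3000 UMIs, with Clopper-Pearson intervals, and no cell was lost. No p-value was computed, since each genotype has 1 library. The log2 ratio of sums, the thinning and the ranking of like genes were tested on simulated data. Clustering, naming of clusters, doublet scores and the motif search were not. Scrublet in Scanpy 1.11.5 called 15 WT and 3 Tipe0-/- cells as doublets, few of the 3402 and 2006 cells. Whether its calls and scores worked in these libraries was not tested, and no cell was removed. An alternative left out the 5% with the highest scores. Gene positions are from GENCODE vM21. The genes named beside the 8 were those of the mucus list past 1.5-fold with at least 50 UMIs in goblet-like cells, any gel-forming mucin at or near 0, and the 3 genes most like each of the 8. Protein sequences were not used here.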

Additional observations from a re-analysis of the deposited data

How the results depend on the processing

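Zg16 and Fcgbp kept a ratio above 0, and Clca1, Agr2 and Spink4 one below 0, in whole libraries and in goblet-like cells under every alternative run. Over whole libraries, Zg16 ranged from 0.99 to 1.51, Fcgbp from 0.48 to 1.01 and Clca1 from -0.97 to -0.47. In goblet-like cells they ranged from 0.89 to 1.43, 0.39 to 0.88 and -1.07 to -0.58, and Agr2 from -0.76 to -0.52. Muc2 (-0.01 to 0.41) and Tff3 (-0.18 to 0.20) took both signs in goblet-like cells, and Tff3 (-0.06 to 0.31) and Klk1 (-0.21 to 0.16) did in whole libraries.

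The counts past 1.5-fold over whole libraries, 2 genes higher and 1 lower, became 0 lower as a mean over thinned cells, 1 higher and 2 lower with the same makeup of classes, and 1 higher and 0 lower at a fold of 2. In goblet-like cells, 1 higher and 2 lower became 2 higher as a mean over thinned cells and at resolution 1.2, and 1 lower without the 5% highest doublet scores. They became 2 higher and 1 lower with 2000 variable genes by vst, with each cell named by its own marker scores, with the same makeup of goblet-like clusters and without the cluster led by Mt3, and 0 higher and 0 lower at a fold of 2. The same makeup of goblet-like clusters and the omission of the cluster led by Mt3, or of that led by Zg16 (1 higher and 2 lower), were chosen after seeing the data. The cause of these moves was not tested. In the main setting 8.62% of all genes were higher and 5.06% lower over whole libraries, and 5.77% and 3.37% in goblet-like cells. Such shares are not given for the alternatives, so their counts are not read against a background. Goblet-like cells were 12.6% to 21.7% of WT and 14.3% to 25.8% of Tipe0-/- cells over the ways of naming them.

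No paired analysis was possible because each genotype has 1 library, and for the same reason no library could be left out. Klk1, with 2904 and 1884 UMIs, was the least abundant of the 8 genes, and the sums of lymphocyte-like cells in Tipe0-/- rest on 16 cells.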
